A study of Mus musculus with 8 samples.

Results

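The PIM kinases are 3 serine/threonine kinases, encoded in the mouse by Pim1, Pim2 and Pim3. All array spots that carried one of these gene names and were not controls were taken, which gave 3 probes of 55681, 1 spot for each gene, and each probe stood for its gene among the 20677 genes tested. RNA was measured on 8 single-colour arrays of 1676 cells, a mouse pre-B cell line of genotype SLP-65-/- LAT-/-, so that all groups lacked the adaptor proteins SLP-65 and LAT. Retroviral vectors, either a control or one that encodes the human microRNA hsa-miR-125b-1, had been brought in and selected with puromycin at 1 µg/ml. Each kind was kept in excess interleukin-7 (IL-7), supplied as supernatant of IL-7-producing J558L cells, or went without it for 24 h to let the cells differentiate. The 4 groups (control with IL-7, miR-125b with IL-7, control without IL-7 and miR-125b without IL-7) had n = 2 arrays each, from 2 experiments with separately generated clones, so each replicate stands for 1 clone.

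PIM kinases differ from most kinases in that they need no activating phosphorylation, so their activity follows the amount of protein made. Cytokine receptors that signal through JAK kinases and STAT factors, the IL-7 receptor among them, are known to induce PIM transcripts, and the kinases then favour survival, protein synthesis and cell cycle entry by phosphorylating proteins such as BAD, 4E-BP1 and p27. Pim1 and Pim2 were first found as sites of retroviral insertion in mouse lymphomas, and early B cells of mice without Pim1 are known to respond less to IL-7. The mature miR-125b-5p, shown because it is the agent tested, was taken from the mouse locus Mir125b-1 in RefSeq (GRCm38.p6, plus strand, chr9:41581940-41581961). Capitals mark its seed, bases 2 to 8.
mmu-miR-125b-5p: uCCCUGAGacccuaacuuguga

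The probes lie, in mm9 coordinates of the array files, on chromosome 17 from 29630740 to 29630799 for Pim1 (accession NM_008842), on chromosome X from 7459678 to 7459737 for Pim2 (NM_138606) and on chromosome 15 from 88695626 to 88695685 for Pim3 (NM_145478). Each spans 60 bases of genome for its 60 bases of sequence, so none crosses an intron. The Pim1 probe, shown as the sequence behind the brightest of the 3 spots, reads into the part that encodes the kinase domain.
Pim1 probe: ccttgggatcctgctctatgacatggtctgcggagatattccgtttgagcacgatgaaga
The DNA complement of the seed, CTCAGGG, was found in 0 of the 3 probes, which says nothing of the rest of the transcripts. In the RefSeq windows from 250 bases before to 50 bases after each listed start (GRCm38.p6; 1 each for Pim2 and Pim3, 2 for Pim1), the STAT-type motif TTCNNNGAA, which reads the same on both strands, was found in none, against 8.30% of all 32851 windows. The E-box CACGTG, the same on both strands too, was in 1 of the 4, the downstream Pim1 window, with its first base 58 bases before the start, against 7.15% of all windows. A match is a string of letters and no test of binding.

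Signals are given as log2 of the spot signal over the array's own 75th percentile, called the log2 level here. Limma tested differences over all genes together, and "called" means an adjusted p (Benjamini-Hochberg) of less than 0.05. Over the arrays 47.7% to 54.8% of probes were well above background and 0 spots were saturated. Replicates correlated across genes at r = 0.994 to 0.996. The 75th percentile of signal ranged from 325 to 379 with IL-7 and from 606 to 722.5 without. Each IL-7 condition had its own slide and scan, so these cannot be told apart from withdrawal. Control and miR-125b arrays shared slides but took different columns, 1 and 2 against 3 and 4, and so position cannot be told apart from vector. Of 10 pre-B markers (such as Cd79a, Pax5, Vpreb1 and Rag1), 9 were matched on the array and all 9 were well above background in every group, and their summed signal over the 75th percentile was 1323 to 1367 with IL-7 and 1037 to 1063 without. Other markers summed to 11.7 to 16.9 for 7 of myeloid cells, 6.20 to 8.79 for 7 of T and NK cells and 22.7 to 40.9 for 5 of plasma cells. The sums were 0.166 to 0.328 for 4 of erythroid cells and 0.0360 to 0.0789 for 4 of stromal cells. Of the stromal genes 0 were above background on both arrays of any group. Sums of different lists are not compared as amounts of cells, since each probe binds with its own strength. Of the T and NK genes, Cd3e, Cd4, Nkg7 and Klrb1c were well above background on both arrays of every group. The same held for Itgam, Csf1r, Elane and Fcgr3 of the myeloid genes, for 4 plasma cell genes and for 2 erythroid genes. The T-cell gene Cd3d was not well above background on any array. Cd8a was above background only on the arrays without IL-7, where it was at least 84.7-fold higher in control cells and at least 97.8-fold higher in miR-125b cells. The disrupted genes Blnk (for SLP-65) and Lat gave signal on all 8 arrays, and whether their probes lie in the deleted parts is not given in the sources used here.

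All 3 PIM transcripts were well above background on all 8 arrays. The percentile of the spot among all probes of its array was 82.8 to 85.5 for Pim1, 78.0 to 81.1 for Pim3 and at the lowest 72.5 for Pim2. Signals of different probes are not compared as amounts of RNA, since each probe binds with its own strength.

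Pim1, the founding member, had log2 levels of 1.98 and 2.12 in control cells with IL-7 and 1.83 and 1.63 in miR-125b cells with IL-7. Without IL-7 it read 2.15 and 2.07 in control cells and 1.93 and 1.98 in miR-125b cells. In both IL-7 conditions the miR-125b arrays lay below the control arrays of the same slide, by more in IL-7. The group means ran from 2.11 (SD 0.06, n = 2) in control cells without IL-7 through 2.05 (SD 0.10, n = 2) in control cells with IL-7 and 1.96 (SD 0.04, n = 2) in miR-125b cells without it to 1.73 (SD 0.15, n = 2) in miR-125b cells with it. Only the last of these neighbours did not overlap with the group before it.

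Pim2, which is known to respond to cytokines and to NF-kappaB in lymphocytes, had log2 levels of −0.40 and −0.34 in control cells with IL-7 and −0.56 and −0.58 in miR-125b cells with IL-7. Without IL-7 it read −0.36 and −0.23 in control cells and −0.72 and −0.79 in miR-125b cells. All 4 miR-125b arrays, at −0.79 to −0.56, lay below all 4 control arrays, at −0.40 to −0.23. The share of all genes that separate in this way was not counted. In order, control cells without IL-7 had a mean of −0.29 (SD 0.09, n = 2) and control cells with IL-7 one of −0.37 (SD 0.04, n = 2), and these overlapped. MiR-125b cells followed at −0.57 (SD 0.01, n = 2) with IL-7 and −0.76 (SD 0.05, n = 2) without, which did not overlap with each other or with the control groups.

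Pim3, known in rat as a kinase induced by depolarization, showed another pattern. Its log2 levels with IL-7 were 1.18 and 1.05 in control cells and 1.21 and 1.15 in miR-125b cells. Without IL-7 they were 0.51 and 0.47 in control cells and 0.64 and 0.63 in miR-125b cells. All 4 arrays without IL-7 lay below all 4 with it, and the share of all genes that do so was not counted. The means were 1.18 (SD 0.04, n = 2) in miR-125b cells and 1.11 (SD 0.09, n = 2) in control cells with IL-7, which overlapped. They were 0.63 (SD 0.01, n = 2) in miR-125b cells and 0.49 (SD 0.03, n = 2) in control cells without IL-7, which did not overlap.

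**Figure D1:**
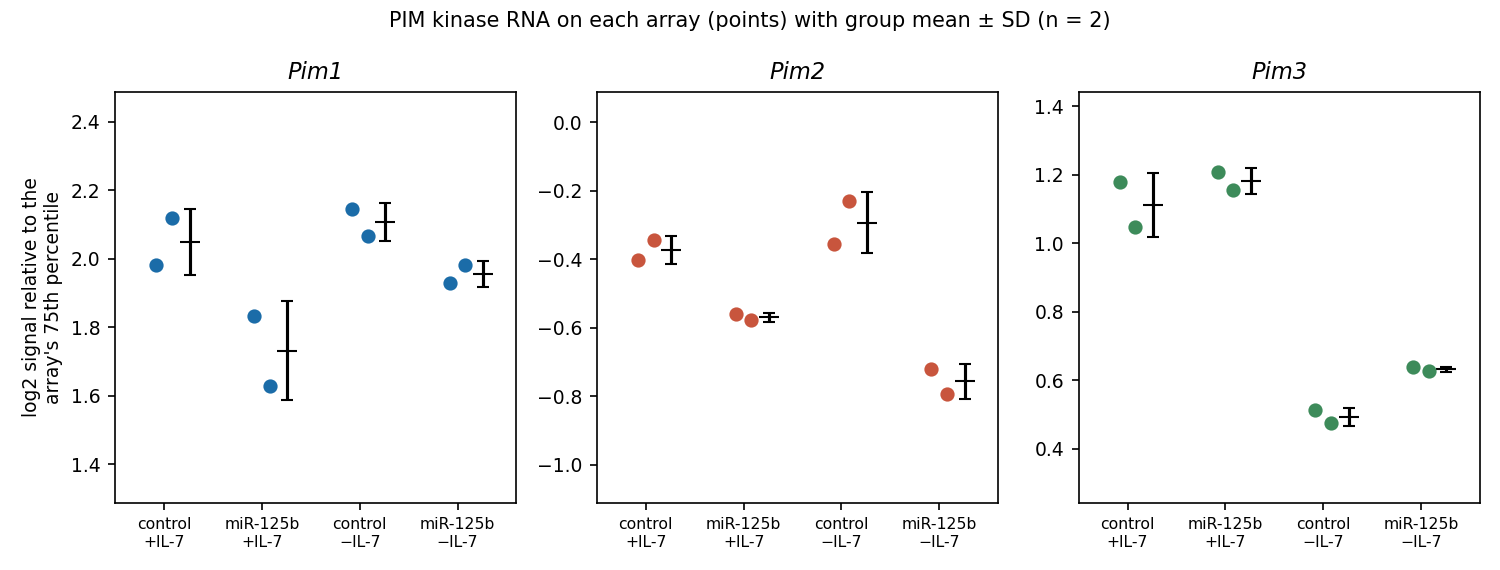
Log2 signal over the array's 75th percentile for Pim1, Pim2 and Pim3, with 1 point for each array of the 4 groups and the group mean ± SD (n = 2) in black beside them; each panel has its own range of the same height. Pim2 is lower on all miR-125b arrays (−0.79 to −0.56) than on all control arrays (−0.40 to −0.23), and Pim3 is lower on all arrays without IL-7 (0.47 to 0.64) than with it (1.05 to 1.21). The shares of all genes that separate in these ways were not counted.

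Whether miR-125b changes PIM transcripts in growing pre-B cells was asked first in IL-7, where none of the 3 passed. Pim1 differed by −0.32 (SE 0.10, adjusted p = 0.154), with a 95% interval from −0.56 to −0.07, which is 0.677 to 0.951 as a ratio to control. Pim2 differed by −0.20 (SE 0.08, adjusted p = 0.233), with an interval from −0.39 to −0.0048. Pim3 differed by 0.070 (SE 0.08, adjusted p = 0.644), with an interval from −0.12 to 0.26. In this comparison 2.59% of all genes were called. Groups that do not overlap, as for Pim1 and Pim2 here, were seen in 50.1% of genes.

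Without IL-7, Pim2 was lower in miR-125b cells. Its log2 level fell by 0.46 (SE 0.08, adjusted p = 0.0323), to 0.725 of the control level, with a 95% interval from −0.66 to −0.27. Groups did not overlap for any of the 3 members, nor for 60.7% of all genes. Called genes made up 6.42% of those tested, 3.47% in the lower direction, and 8.81% of genes had a more negative difference than Pim2. Pim1 differed by −0.15 (SE 0.10, adjusted p = 0.403; interval −0.40 to 0.095), and Pim3 by 0.14 (SE 0.08, adjusted p = 0.321; interval −0.05 to 0.33). The Pim2 call was lost with the replicate number as a block (adjusted p = 0.0709), with only the 4 arrays compared (0.0755) and with no filter on dim probes (0.0947), each at the same difference. It also rests on every array: leaving out any 1 of the 8 gave −0.53 to −0.40 at an adjusted p of 0.0509 to 0.152. With each array scaled to its median instead, the difference was −0.28 (adjusted p = 0.258), a change that shifted all genes, so that relative to the median gene Pim2 stood at −0.45 in both scalings.

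Averaged over both IL-7 conditions, with 4 arrays against 4, Pim2 fell by 0.33 (SE 0.06, adjusted p = 0.0173), to 0.795 of the control level, with an interval from −0.47 to −0.19. Pim1 differed by −0.23 (SE 0.07, adjusted p = 0.0773; interval −0.41 to −0.06) and Pim3 by 0.10 (SE 0.05, adjusted p = 0.240; interval −0.03 to 0.24). Of all genes 15.8% were called in this average, 7.25% higher and 8.55% lower. Without control with IL-7 replicate 2, or without any 1 of the arrays lacking IL-7, the Pim2 call was lost, with an adjusted p of 0.0501 to 0.0662. It was lost too with no filter on dim probes (0.0668) and with scaling to the median, which gave −0.19 (adjusted p = 0.239). Pim1 passed with normexp background correction (adjusted p = 0.0264) and with a mean-variance trend (adjusted p = 0.0292). As everywhere in bulk RNA, fewer cells that express a gene and less RNA in each cell cannot be told apart.

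Without IL-7 the scaled level of Pim3 was lower, while Pim1 and Pim2 did not pass. Before scaling, the mean Pim3 signal was higher without IL-7 than with it. It was 893.74 against 717.19 in control cells and 1082.42 against 835.04 in miR-125b cells. The fall is thus one relative to the other spots of the array, and slide and scan cannot be told apart from withdrawal. In control cells the scaled Pim3 level fell by 0.62 (SE 0.08, adjusted p = 0.00212; 95% interval −0.81 to −0.43), to 0.651 of that with IL-7. In miR-125b cells it fell by 0.55 (SE 0.08, adjusted p = 0.00331), to 0.683, with an interval from −0.74 to −0.36. Both calls held in all 19 other settings, at values from −0.95 to −0.54 in control cells and from −0.80 to −0.39 in miR-125b cells. Calls were common here, at 54.2% of genes in control cells (20% higher, 34.2% lower) and 52.4% in miR-125b cells (20.3% higher, 32.1% lower). Of all genes 20.9% and 21.4% had a more negative difference than Pim3. Relative to the median gene, which itself moved by −0.13 and −0.11, Pim3 stood at −0.49 and −0.44. Other cell markers moved with withdrawal too. The pre-B sum was lower without IL-7, yet of its 9 genes 4 rose in each cell type (Rag1, Rag2, Pax5 and Ebf1), while 2 fell in control cells (Vpreb1 and Igll1) and 3 in miR-125b cells. The plasma cell sum went from 22.7 to 23.6 up to 36.5 to 37.4 in control cells and from 28.0 to 29.8 up to 40.0 to 40.9 in miR-125b cells, with 2 of 4 tested genes higher and 2 lower in each. Of 5 T and NK genes tested, Cd8a rose and Cd3e fell in both cell types (−1.44 and −1.52), and Cd4 fell in control cells (−0.37). The part of these markers in the Pim3 result was not tested.

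Pim1 differed by 0.058 on withdrawal in control cells (SE 0.10, adjusted p = 0.646; interval −0.19 to 0.30) and by 0.22 in miR-125b cells (SE 0.10, adjusted p = 0.108; interval −0.02 to 0.47). Pim2 differed by 0.080 in control cells (SE 0.08, adjusted p = 0.416; interval −0.11 to 0.27) and by −0.19 in miR-125b cells (SE 0.08, adjusted p = 0.0900; interval −0.38 to 0.0048). In miR-125b cells the groups did not overlap for any of the 3 members, nor for 79.4% of all genes; in control cells they did not for Pim3, nor for 81.1%. As ratios, the intervals in control cells ran from 0.878 to 1.23 for Pim1 and from 0.925 to 1.21 for Pim2. A loss of Pim1 or Pim2 as large as that of Pim3 lies outside these intervals, but they hold for this scaling: scaled to the median the control values were −0.28 and −0.25, with adjusted p of 0.105 and 0.146. Leaving out control with IL-7 replicate 1 also turned the sign of Pim1 in control cells (−0.011, adjusted p = 0.947). In miR-125b cells, Pim1 rose with normexp (0.40, adjusted p = 0.00526), and Pim2 fell with quantile normalization, scaling to the median and the authors' deposited table.

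The difference of the withdrawal response between miR-125b and control cells was 0.17 for Pim1 (SE 0.14, adjusted p = 0.970; interval −0.18 to 0.51), −0.27 for Pim2 (SE 0.11, adjusted p = 0.851; interval −0.54 to 0.0045) and 0.069 for Pim3 (SE 0.11, adjusted p = 0.990; interval −0.20 to 0.33). Limma called 0 of 20677 genes in this test, that is 0%, and 1215 had an unadjusted p under 0.05. So the fall of Pim2 with miR-125b, called without IL-7 and not with it, was not shown to differ between the conditions.

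**Figure D2:**
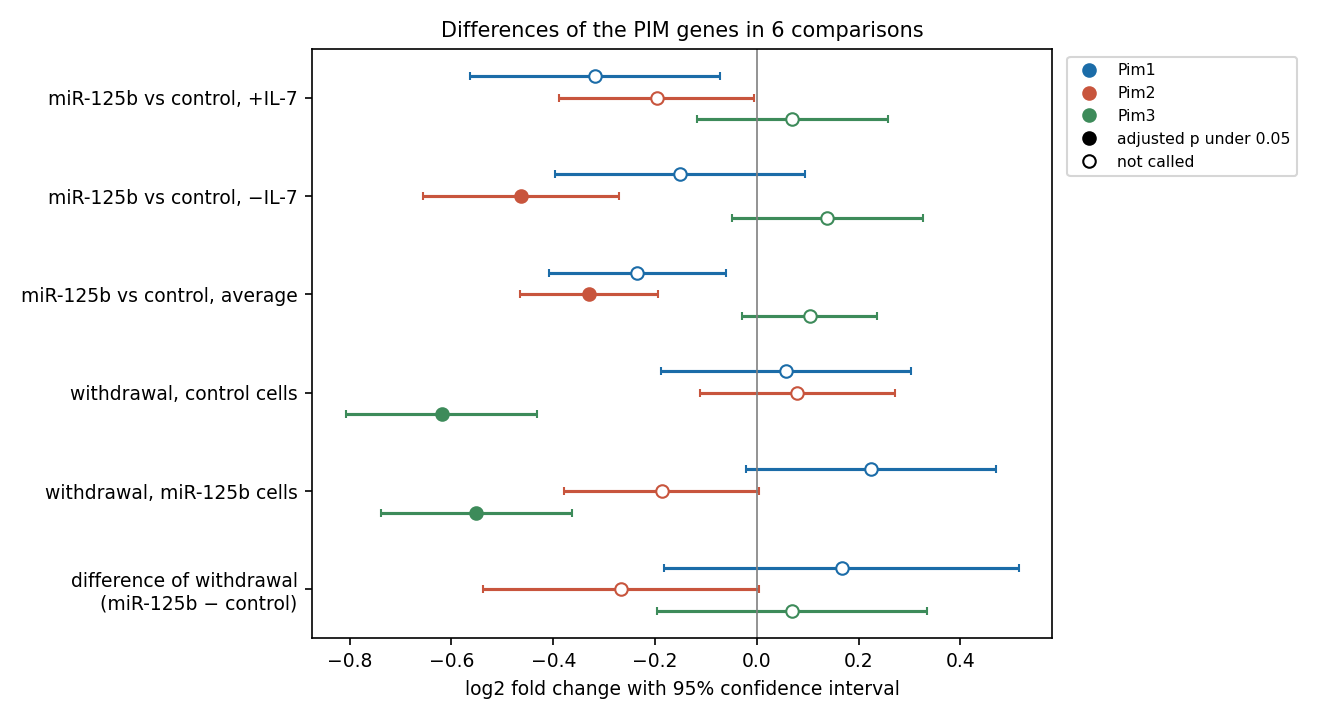
Log2 fold change of each PIM gene in 6 comparisons (rows), with the 95% confidence interval of the limma fit; filled points have an adjusted p under 0.05. Pim2 passed for miR-125b without IL-7 (−0.46) and in the average (−0.33), and Pim3 after withdrawal, both in control (−0.62) and in miR-125b cells (−0.55); no difference of the withdrawal response passed.

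Upstream of the PIM genes lies the IL-7 receptor, which signals through JAK kinases and STAT factors. The list used held 8 genes of the receptor and of the JAK and STAT families, not all of them (such as Tyk2) tied to IL-7. In IL-7 only Il7r, the receptor's own subunit, fell with miR-125b (−0.66, SE 0.09, adjusted p = 0.0364), a call lost in 14 of 18 other settings, and the list median was −0.20 against −0.04 over all genes. Without IL-7, Il7r (−0.58) and Il2rg (−0.42), the shared gamma chain, fell, 2 of 8, with a median of −0.26 against −0.01; 2.95% of all genes were called higher there and 3.47% lower. Other settings lost the call of Il2rg in 12 of 18 cases and that of Il7r in 10 of 18. In the average, Tyk2 (−0.65), Il7r (−0.62) and Il2rg (−0.33) fell, and the kinase gene Jak1 (0.24) and the factor gene Stat5a (0.28) rose, while Jak3, Stat5b and Stat3 did not pass. The calls of Jak1 and Stat5a were lost in 10 and 9 of 17 other settings. Of all genes 8.55% were called lower in the average and 7.25% higher. On withdrawal Il2rg fell in control (−0.33) and miR-125b cells (−0.50), and Stat3 in the latter (−0.38). Il7r, Jak1, Jak3, Stat5a, Stat5b and Tyk2 did not pass in either, and the list medians were −0.06 and −0.01 against −0.13 and −0.11. Over all genes 34.2% were called lower in control cells and 32.1% in miR-125b cells, and 20% and 20.3% were called higher.

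Of 11 other genes listed as responsive to STAT5 or cytokines, not all of them in the same direction, 0 were called with miR-125b in IL-7. Without IL-7, 1 rose and 3 fell, beside 2.95% and 3.47% of all genes. Myc, a growth regulator, rose by 1.46 (SE 0.25, adjusted p = 0.0332). Socs3, a feedback inhibitor of JAK kinases (−0.76), Mcl1, a pro-survival BCL2 protein (−0.62), and Ccnd2, a G1 cyclin (−1.71), fell. Ccnd2 was well above background on 1 of the 2 miR-125b arrays, and lost its call in 14 of 17 other settings. Cish, Socs1, Socs2 and Bcl2 did not pass, and the list median was −0.21. In the average Myc (1.13) and Socs2 (0.39) rose, and Mcl1 (−0.48) and Socs3 (−0.41) fell, as did Ccnd2, which was not above background in IL-7. Of all genes 7.25% were called higher in the average and 8.55% lower.

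On withdrawal in control cells, 5 of these 11 genes rose and 1 fell, beside 20% and 34.2% of all genes, with a median of 0.41 against −0.13. Myc fell by 2.11 (SE 0.25, adjusted p = 0.00197). Socs3 (0.80), Bcl2l1, the gene of the pro-survival protein BCL-XL (0.80), Socs2 (0.43) and Socs1 (0.37) rose, and Ccnd2, not well above background with IL-7, was at least 2.70-fold higher. With normexp Ccnd2 differed by 0.23 (adjusted p = 0.0824), below that bound. Socs2 lost its call in 9 of 18 other settings and Socs1 in 6, down to 0.094 and 0.036 with scaling to the median. Cish, Bcl2 and Mcl1 did not pass. In miR-125b cells 5 rose and 2 fell, beside 20.3% and 32.1% of all genes, with a median of 0.28 against −0.11: Myc fell by 1.45 and the cytokine gene Osm by 0.58, and Bcl2l1 (0.79), Bcl2 (0.51), Socs1 (0.50), Bcl6 (0.41) and Ccnd2 rose. Ccnd2 was above background on 1 of the 2 arrays without IL-7 and 0 of the 2 with it, and with normexp it read −0.35. Cish, Socs2, Socs3 and Mcl1 did not pass.

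NF-kappaB is a further known inducer of Pim2, and 7 of the 8 genes in its list were tested. In IL-7 0 of 7 were called for miR-125b, with a median of −0.20. Without IL-7 5 of 7 fell, beside 3.47% of all genes, with a median of −0.57 against −0.01: Relb (−1.13, or −0.74 with all its kept probes averaged), Tnfaip3, a feedback inhibitor (−1.10), Nfkb2 (−0.83), Nfkbia (−0.57) and Nfkbie (−0.48), while Nfkb1 and Rela did not pass. Of 18 other settings, 10 lost the call of Nfkbia without IL-7, 8 that of Tnfaip3, and 4 each those of Relb and Nfkb2. In the average the same 5 genes fell, beside 8.55% of all genes, led by Relb (−0.78), Tnfaip3 (−0.75) and Nfkb2 (−0.52), with Nfkbia at −0.48. On withdrawal in control cells 5 of 7 rose, beside 20% of all genes, with a median of 0.70 against −0.13: Relb by 2.04 (SE 0.10), Tnfaip3 by 1.87, Nfkb2 by 0.85, Nfkbie by 0.70 and Nfkbia by 0.50. In miR-125b cells 4 of 7 rose, beside 20.3% of all genes, with a median of 0.33 against −0.11: Relb (1.34), Tnfaip3 (1.17), Nfkbie (0.35) and Nfkbia (0.33). Pim2 was lower where these genes were lower with miR-125b. It did not pass on withdrawal, where most of them rose. A link between Pim2 and these genes was not tested.

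Downstream, 27 genes encode proteins reported as PIM substrates. With miR-125b 0 were called in IL-7, beside 2.59% of all genes. Without IL-7 1 rose (Myc) and 1 fell (Socs3), beside 2.95% and 3.47% of all genes. The list medians were −0.028 and −0.0035 against −0.04 and −0.01 over all genes. In the average the same pair was called, beside 7.25% of all genes higher and 8.55% lower. On withdrawal in control cells 6 of 27 rose and 11 fell, beside 20% and 34.2% of all genes, with a median of −0.17 against −0.13. These shares lie near those of all genes and show nothing about the substrates as a group. After Myc, the translation repressor gene Eif4ebp1, for 4E-BP1, fell by 0.96 and the cell cycle inhibitor gene Cdkn1a by 0.86, although its kept probes together gave 0.055. Bad, the BH3-only death agonist that PIM kinases phosphorylate, fell by 0.45 (adjusted p = 0.00696). Socs3, Cdkn1b, the gene of p27 (0.48), and Socs1 rose most. In miR-125b cells 8 rose and 8 fell, beside 20.3% and 32.1% of all genes, with a median of −0.16 against −0.11. Myc, Cdkn1a (−1.23, or −0.0025 with its kept probes averaged) and Eif4ebp1 (−0.92) fell most. Bad fell by 0.26 (adjusted p = 0.0446), a call lost in 12 of 18 other settings, with −0.013 in the authors' deposited table. Socs1, Tsc2, a brake on mTOR (0.49), and Cdkn1b (0.44) rose most.

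PIM proteins are short-lived and are known to be held stable by the chaperone HSP90, while protein phosphatase PP2A acts the other way. Of 6 such genes, Hsp90ab1 (−1.07), Hsp90aa1 (−0.82) and the PP2A catalytic gene Ppp2ca (−0.47) fell on withdrawal in control cells. The stress chaperone gene Hspa1a rose by 0.81, or −0.16 with normexp. Of all genes 34.2% were called lower and 20% higher there, and the list median was −0.23 against −0.13. In miR-125b cells the same 3 fell (−0.92, −0.97 and −0.34), beside 32.1% of all genes, with a list median of −0.18 against −0.11. Hspa1a, which was not well above background in that group with IL-7, was at least 1.52-fold higher, but read −0.29 with normexp. With miR-125b, Ppp2r5b, a regulatory PP2A subunit, fell without IL-7 (−0.47) and in the average (−0.45), and none of the 6 passed in IL-7. Other settings lost these Ppp2r5b calls in 10 of 18 and 1 of 17 cases. Of all genes 3.47% were called lower without IL-7 and 8.55% in the average. Hspa1a was also called lower in the average.

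AKT kinases share several substrates with PIM kinases, and of 11 genes of the AKT and mTOR arm 0 were called with miR-125b in IL-7. Pdpk1, which encodes the kinase that activates AKT, fell without IL-7 (−0.39) and in the average (−0.34). Other settings lost these calls in 13 of 18 and 5 of 17 cases. On withdrawal in control cells Akt1 (−0.48) and the cap-binding factor gene Eif4e (−0.59) fell, and Pik3ca (0.46, lost in 9 of 18 other settings) rose. In miR-125b cells Akt1 (−0.47), Eif4e (−0.57) and Pik3cd (−0.33, lost in 9 of 18 other settings) fell and 0 rose. The list medians on withdrawal were 0.18 in control and 0.08 in miR-125b cells, against −0.13 and −0.11 over all genes. Of all genes 34.2% and 32.1% were called lower, and 20% and 20.3% higher.

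**Figure D3:**
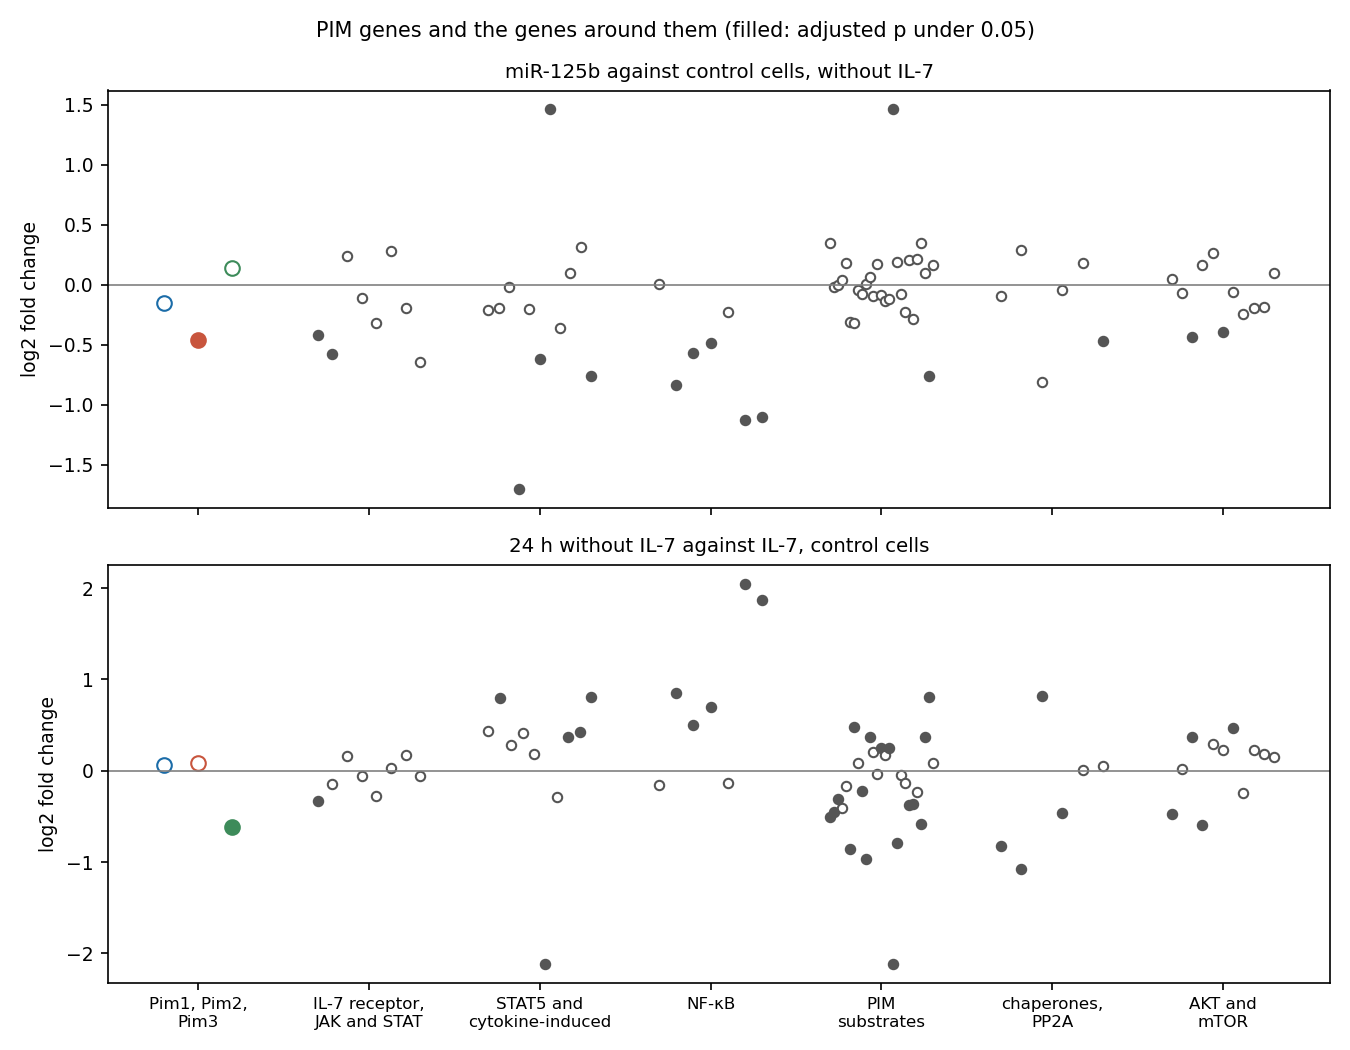
Log2 fold changes of the PIM genes (coloured, Pim1, Pim2 and Pim3 from left to right) and of the members of 6 lists (grey), for miR-125b against control without IL-7 (top) and for withdrawal in control cells (bottom); filled points have an adjusted p under 0.05, and genes not well above background on any array of a group compared are left out, and a gene of several lists is drawn in each. Pim2 (−0.46) is filled at the top, where 5 of 7 NF-kappaB genes fell, and Pim3 (−0.62) at the bottom, where those 5 rose. Of all genes 3.47% were called lower at the top and 20% higher at the bottom.

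The patterns of the 3 members over the 8 arrays had little in common: Pearson's r was 0.50 for Pim1 with Pim2, −0.56 for Pim1 with Pim3 and −0.046 for Pim2 with Pim3. These points share arrays and slides, so r is a description. Among 13740 other genes with a symbol, likeness was measured as the root mean square difference of the mean-centred log2 levels over the 8 arrays. The nearest to Pim1 were Prune1 (0.041, r = 0.979), 5730416F02Rik (0.051), Zscan26 (0.052), Akirin1 (0.054) and Parp11 (0.055). The nearest to Pim2 were Poli (0.029, r = 0.992), Arrdc1 (0.051), Mtmr1 (0.054), Ttpal (0.054) and Fbxo7 (0.056). Among the nearest to Pim3 were Gm6272 (0.036, r = 0.994), Rpl17 (0.037), Rpl31-ps10 (0.039) and Lrrc41 (0.042). The ribosomal protein gene and pseudogene in this last set have near-identical copies, so which locus their probes read is uncertain.

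**Figure D4:**
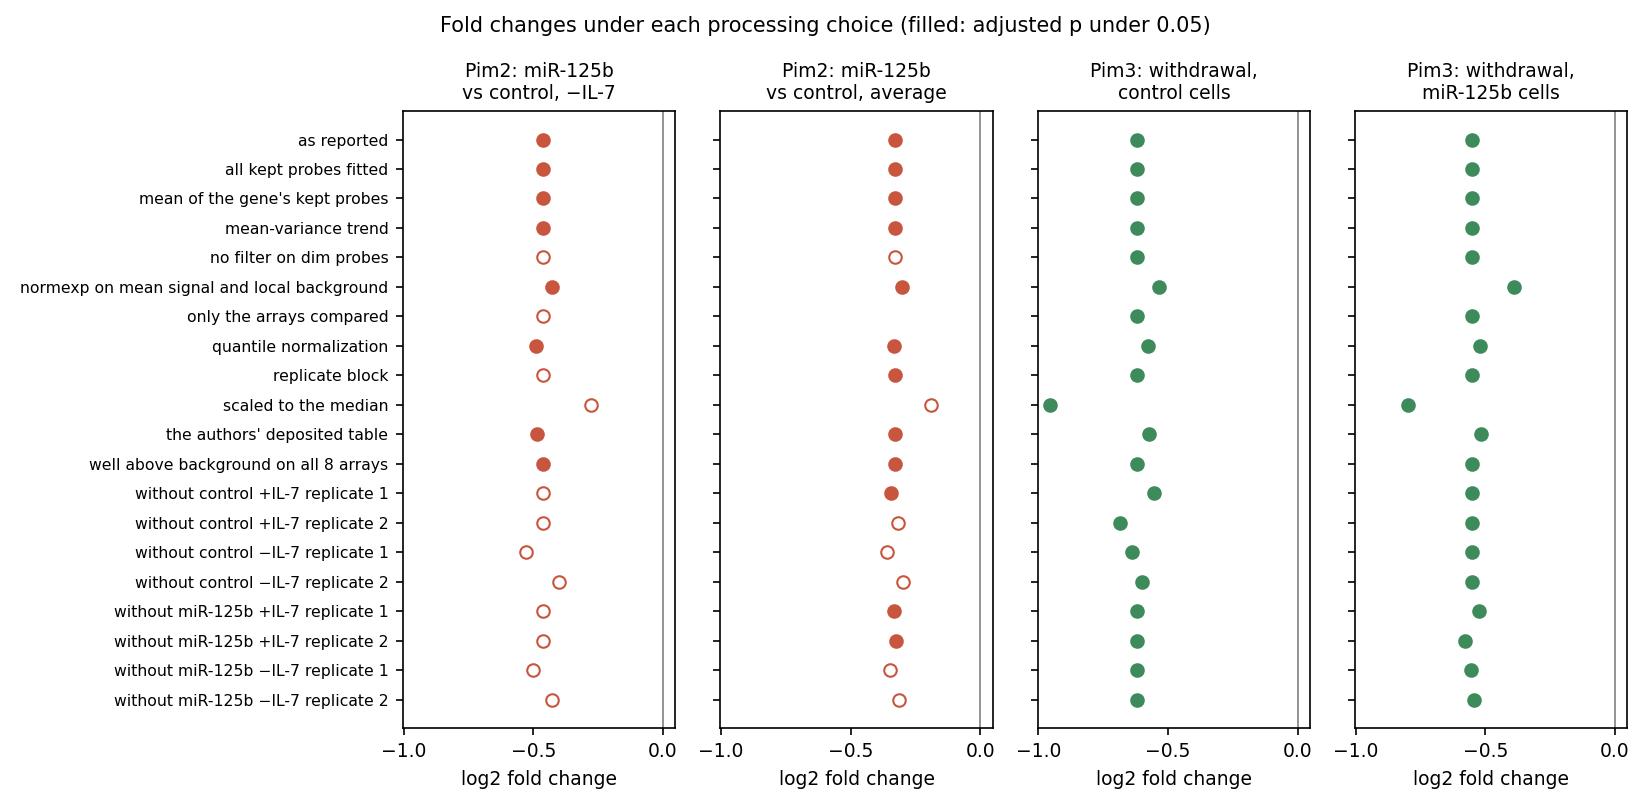
Log2 fold change of the called PIM results (panels) as reported and under each other processing choice (rows), filled where the adjusted p is under 0.05; a choice that gives no value has no point. Pim3 is filled throughout in both cell types, while every fit without 1 array leaves Pim2 unfilled without IL-7.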

How the data were processed

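Spots were scanned as one-colour Cy3 arrays from 100 ng of total RNA. Per the file headers, the processed signal is an intensity on a linear scale, detrended and background-subtracted within the array; the mean signal and median local background are raw intensities. Quality marks (other values, 0 or 1) are, per the file headers, those of Agilent Feature Extraction 10.7.3.1 (arrays with IL-7) and 10.7.1.1 (arrays without), while for all arrays the submitters' processing notes give 10.7.1.1. The authors also deposited normalized intensity values with the same distribution in each column (median 21.7), used as an alternative.

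Of 62976 spots, 3671 controls were left out, spots of a probe were averaged, and 58 probes not uniform on an array were dropped. From each log2 signal the log2 of that array's 75th percentile was subtracted. Probes well above background on both arrays of a group were kept (29811), and the brightest stood for each of 20677 genes. Symbols were updated from RefSeq. Limma 3.58.1 under R 4.3.3 fitted 4 group means to 8 arrays (4 residual degrees of freedom, prior 1.82), with two-sided p and Benjamini-Hochberg adjustment over all genes; the fit was tested on simulated data. The number of arrays limits the precision. "At least" marks a bound from the lowest signal well above background.

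Members, lists and tests were chosen with earlier results of these data known. Genes named beside the members were a fixed set and the called list members of largest size, up to 3 in each direction; others were named to complete a small count, after their values were seen, as were the marker genes; a few genes of these sets are not reported here. Same-numbered arrays deviated together at r = −0.10 to 0.11, so the numbers were not taken as pairs. Alternatives were other background corrections, scalings, filters, probe rules and variance models, the deposited table, the replicate block and each array left out.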

Additional observations from a re-analysis of the deposited data

How the results depend on the processing

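Over the 3 genes and 6 comparisons, 336 values were recomputed: 306 kept their direction and side of the threshold, 19 lost the call, 6 gained one and 5 changed sign. The falls of Pim3 on withdrawal were called in all 19 other settings in each cell type. Scaling to the median moved the median gene from −0.13 to −0.46 on withdrawal in control cells. Under it Pim1 became −0.28 and Pim2 −0.25 there, Pim1 −0.022 on withdrawal in miR-125b cells and 0.034 for miR-125b without IL-7, Pim2 −0.28 for miR-125b without IL-7 and −0.19 in the average, and Pim2 was called on withdrawal in miR-125b cells (−0.43). That last call was also made with quantile normalization (−0.26) and the authors' deposited table (−0.25). Pim2 at −0.46 for miR-125b without IL-7 missed the threshold with no filter on dim probes (adjusted p = 0.0947), only the arrays compared (0.0755) and the replicate block (−0.46, adjusted p = 0.0709), and at −0.33 in the average with no filter (0.0668). The block, added although the numbers were not shown to pair the samples, changed no other PIM call. Leaving out 1 array gave Pim2 −0.53 to −0.40 without IL-7 and −0.36 to −0.30 in the average, and Pim1 −0.011 to 0.13 on withdrawal in control cells. Pim1 was called with normexp in the average (−0.25) and on withdrawal in miR-125b cells (0.40), and with a mean-variance trend in the average (−0.23). Among called genes of the 6 lists named by rule, 13 of 13 for miR-125b without IL-7 and 12 of 23 on withdrawal in control cells lost the call in at least 1 setting; Cdkn1a (0.055, probes averaged), Hspa1a (−0.16 and −0.29, normexp) and Ccnd2 (−0.35, normexp) changed sign on withdrawal. The cause was not tested. Over all genes, the 1328 calls for miR-125b without IL-7 became 454 with the block, 604 with no filter, 496 from the 4 arrays compared alone, 849 scaled to the median, 2066 with the deposited table, 2067 with quantile normalization, 2622 with the trend, 2650 with normexp and 3 to 1131 without 1 array. The 535 in IL-7 became 0 with no filter or only the arrays compared, 17 with the block, 220 scaled to the median, 913 with probes above background on all 8 arrays, 1489 with the trend and as few as 0 without 1 array. The 3267 of the average became 1392 with no filter, 2172 with the block and as few as 984 without 1 array; those on withdrawal fell as low as 7245 and 7173 without 1 array. For the difference of the withdrawal response, at 0, other settings gave at most 5.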
